A study of Homo sapiens with 4 samples.

Results

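The 9 noncoding snoRNA host genes GAS5, SNHG1, SNHG5, SNHG6, SNHG8, SNHG12, SNHG15, SNHG16 and ZFAS1 were examined in RNA-sequencing counts of a STAU1 knockdown. They were chosen by name, as host transcripts known to be degraded by nonsense-mediated decay, and matched by symbol to the Ensembl identifiers of the count table, where they are 9 of 67008 genes. The table covers 2 libraries of Ctrl cells, infected with a virus that carries an shRNA against luciferase (shLuc), and 2 libraries of shSTAU1 cells, infected with a virus that carries an shRNA against STAU1. Both groups are labelled wild type and come from SAS, an established line from a squamous carcinoma of the human tongue, and each group carries 1 shRNA in a pLKO vector. No source used here says that the replicates came from separate cultures, so the tests measure the spread between these libraries, which may be technical.

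The labels also name a mouse fibroblast line, C3H 10T1/2, while the growth protocol and the design text name SAS. Summed over 8 epithelial marker genes, the level ran from 7721 to 11631 CPM (counts scaled to library size, after TMM, an edgeR scaling that balances most genes between libraries) over the 4 libraries, against 10.2 to 22.8 CPM over 7 fibroblast markers. No marker was at 0 in all libraries, but the fibroblast markers COL3A1, DCN and LUM had at most 1 count in any library. The epithelial sum was 8464 and 7721 CPM in Ctrl and 11631 and 8913 CPM in shSTAU1, the fibroblast sum 17.9 and 22.8 against 11.1 and 10.2 CPM, and the part of these shifts in the results was not tested. KRT5, a basal keratin, rose (log2 fold change 0.65, standard error 0.12), and COL1A1, the main fibrillar collagen chain, fell by 1.35 on the log2 scale, with adjusted p of 0.0408 and 0.036 in edgeR's quasi-likelihood test. KRT17 had a log2 fold change of 0.28 and COL1A2 one of 1.01, neither past the threshold. COL1A1 alone made up most of the fibroblast sum, at 15.7 and 20.2 CPM in Ctrl and 7.84 and 6.25 CPM in shSTAU1. The libraries held 32206655 to 36301574 counts. The targeted gene, STAU1, had 249 and 251 CPM in Ctrl and 41.6 and 41.5 CPM in shSTAU1 (log2 fold change -2.59, standard error 0.13, adjusted p = 0.00103), while its paralog STAU2 was at 0.01 on the log2 scale (standard error 0.19, 95% interval -0.42 to 0.45).

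Small nucleolar RNAs (snoRNAs) guide chemical modification of ribosomal RNA, the box C/D class (SNORD genes) for ribose methylation and the box H/ACA class (SNORA genes) for pseudouridylation. In vertebrates most of them are cut out of the introns of host genes, and the spliced exons are left as a by-product. In this family the exons hold no long reading frame. The transcripts start with a pyrimidine tract like that of ribosomal protein mRNAs, are taken up by ribosomes and are then removed by nonsense-mediated decay (NMD), so that their steady level is known to rise when that pathway is blocked. STAU1, a double-stranded RNA-binding protein, recruits the NMD helicase UPF1 to its own targets, so the comparison asks whether these transcripts differ in level when STAU1 is depleted.

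RefSeq places 35 snoRNAs inside the 9 genes, with 11 in GAS5, 9 in SNHG1, 4 in SNHG12, 3 each in SNHG16 and ZFAS1, 2 in SNHG5 and 1 each in SNHG6, SNHG8 and SNHG15. GENCODE 29 on GRCh38 gives the genes with 0.923 kb (SNHG8) to 5.36 kb (SNHG16) of merged exon. It lists 29 transcripts for GAS5, 25 for SNHG1 and 23 for SNHG5, of which 19, 13 and 4 are retained-intron forms, against 5 transcripts each for SNHG6 and SNHG8.

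RefSeq start regions (GRCh38.p14) were found for 7 of the 9 genes. They are shown, with pyrimidine runs marked, for the 4 genes whose unadjusted p was under 0.05 in the comparison described next. Each is the coding strand from 15 bases before to 15 bases from the annotated start on, with capitals for a C followed by at least 4 pyrimidines.
SNHG8 (chr4:118278747-118278776, plus strand): aaggcctcggCCTTTCacattcgggaagcg
SNHG16 (chr17:76557749-76557778, plus strand): cgcaggggcggtctcgcgttCTTTTCgagg
GAS5 (chr1:173869031-173869060, minus strand): tgccatcatgaattcagatgtgtttatttt
SNHG1 (chr11:62855871-62855900, minus strand): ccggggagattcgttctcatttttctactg

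Such a run was present in 5 of the 7 windows (71.4%), in SNHG8 and SNHG16 and also in SNHG5, SNHG12 and ZFAS1, against 39.0% of the 35116 start regions in the table and 16 of 17 of those of ribosomal protein genes that host snoRNAs. The windows of SNHG1 and GAS5 had none. Counted in bases from the annotated start, the run began at 0 in SNHG5 and ZFAS1, -1 in SNHG12, -5 in SNHG8 and 5 in SNHG16. No printed window thus has a run that begins at the annotated start, and the capitals do not show that these transcripts start with such a tract. No GENCODE transcript of GAS5 starts inside its window, while at least 2 do for each of the other 6 genes, so the absence in GAS5 concerns the RefSeq start only.

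After STAU1 knockdown 0 of the 9 host transcripts passed a Benjamini-Hochberg adjusted p of 0.05 in edgeR's quasi-likelihood test over 14303 genes, of which 2.60% passed (1.13% higher and 1.48% lower). All 9 had enough counts to be tested. Before adjustment 4 of the 9 (SNHG8, SNHG16, GAS5 and SNHG1) had a p under 0.05, as did 24.5% of all tested genes. DESeq2 called 1 of the 9 and 10.1% of the 14303 genes, though it gave SNHG6 no adjusted p. With limma-voom 0 of the 9 were called (2.54% of all tested genes). A fold change of at least 1.5 with an unadjusted p under 0.05 was met by 1 of the 9 on the lower side, against 8.20% of all tested genes. At an adjusted p of 0.10, edgeR called 1 of the 9 and 11.1% of all tested genes. With the replicate number as a block, edgeR called 2 of the 9 lower (SNHG8 and GAS5) and 1 higher (SNHG16) at 0.05. That fit called 1879 of the 14303 genes lower and 2208 higher. The column headers share the replicate number between groups, but no label says that it marks a batch. The groups did not overlap for 7 of the 9 (56.6% of all tested genes), with shSTAU1 lower for 6 (28.0%) and higher for 1 (28.5%). A log2 fold change below 0 was seen for 7 of the 9 and 49.6% of all tested genes. In bulk RNA a lower level in every cell and fewer cells with the transcript cannot be told apart.

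**Figure D1:**
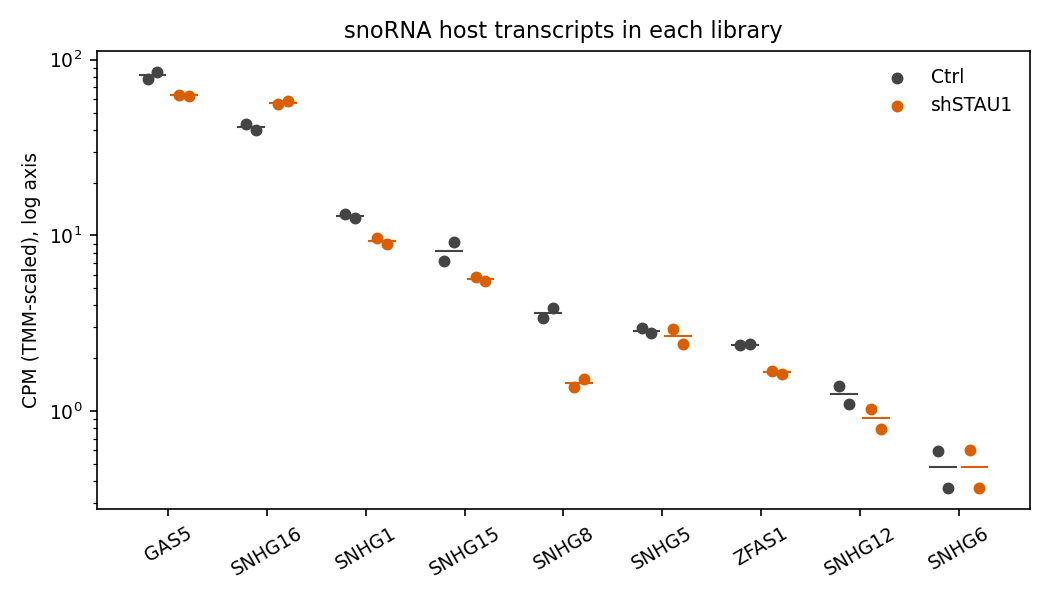
Level of each host transcript in CPM (TMM-scaled, log axis) in the 2 Ctrl and 2 shSTAU1 libraries, 1 point per library, with a line at each group mean. SNHG8 shows the widest gap on this log axis (3.62 against 1.45 CPM on average), SNHG16 is the only one of the 9 that is higher in both shSTAU1 libraries, and SNHG5 and SNHG6 overlap.

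SNHG8 (ENSG00000269893), a short lincRNA on chromosome 4 from 118278709 to 118279823 on the plus strand, carries the H/ACA snoRNA SNORA24. It had 114 and 126 counts (3.39 and 3.85 CPM) in Ctrl and 48 and 54 counts (1.38 and 1.53 CPM) in shSTAU1. The shSTAU1 libraries lay close together at 40.2% of the Ctrl mean. This gap was the widest among the 9, at -1.31 on the log2 scale (standard error 0.33, 95% interval -2.08 to -0.55), but it did not pass the adjustment (adjusted p = 0.0717 in edgeR, 0.0411 in DESeq2). Of all tested genes, 6.77% had a log2 fold change of -1 or less.

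SNHG16 (ENSG00000163597), on chromosome 17 from 76557766 to 76565348 on the plus strand, hosts the box C/D snoRNAs SNORD1A, SNORD1B and SNORD1C. It had 1452 and 1301 counts (43.2 and 39.7 CPM) in Ctrl and 1942 and 2049 counts (55.8 and 58.0 CPM) in shSTAU1. The groups did not overlap, and the mean in shSTAU1 was 1.37-fold that in Ctrl. The log2 fold change was 0.46 (standard error 0.14, 95% interval 0.13 to 0.78, adjusted p = 0.102). A protein-coding gene model on the other strand, AC015802.6, shares 30.6% of the exon bases of SNHG16 but had at most 3 counts in a library.

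GAS5 (ENSG00000234741), first found as a transcript that accumulates in growth-arrested cells, lies on chromosome 1 from 173863900 to 173868882 on the minus strand. It was the most abundant of the 9, with 77.3 and 85.5 CPM in Ctrl and 63.3 and 62.2 CPM in shSTAU1. Both shSTAU1 libraries were below both Ctrl libraries, at 77.1% of the Ctrl mean. The log2 fold change was -0.38 (standard error 0.13, 95% interval -0.68 to -0.067, adjusted p = 0.139).

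SNHG1 (ENSG00000255717), on chromosome 11 from 62851988 to 62855914 on the minus strand, starts 188 bases from the oppositely directed SLC3A2, the heavy chain of several amino acid transporters. SNHG1 had 13.2 and 12.6 CPM in Ctrl and 9.65 and 8.94 CPM in shSTAU1, again with both shSTAU1 libraries lower (log2 fold change -0.47, standard error 0.20, 95% interval -0.93 to -0.015, adjusted p = 0.192). SLC3A2 had 363 and 407 CPM in Ctrl and 298 and 359 CPM in shSTAU1, groups that did not overlap either (log2 fold change -0.23, adjusted p = 0.354).

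SNHG15, host of SNORA9, on chromosome 7 from 44983023 to 44986961, had 7.17 and 9.16 CPM in Ctrl and 5.83 and 5.52 CPM in shSTAU1 (log2 fold change -0.52, 95% interval -1.09 to 0.036, adjusted p = 0.227). Without Ctrl replicate 2 the value was -0.34. ZFAS1, which is transcribed from the chromosome 20 promoter region of ZNFX1 in the other direction and hosts 3 SNORD12 genes, had 2.38 and 2.41 CPM in Ctrl and 1.69 and 1.64 CPM in shSTAU1 (log2 fold change -0.52, 95% interval -1.32 to 0.28, adjusted p = 0.383). The 4 libraries of ZFAS1 held 58 to 80 counts, and with 2 libraries per group their close agreement is no measure of the spread. ZFAS1 shares 11.1% of its exon bases with ZNFX1, which had 3886 to 4269 counts and a log2 fold change of -0.10, and the strand setting of the counting is not given in the sources used here, so reads in the shared stretch cannot be assigned.

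SNHG12, on chromosome 1 from 28578538 to 28583132, hosts 1 box C/D and 3 box H/ACA snoRNAs and had 1.40 and 1.10 CPM in Ctrl and 1.03 and 0.792 CPM in shSTAU1 (log2 fold change -0.45, 95% interval -1.50 to 0.60). Its value was -0.28 without Ctrl replicate 1 and -0.29 without shSTAU1 replicate 2. SNHG5, host of SNORD50A and SNORD50B on chromosome 6 from 85660950 to 85678748, had 2.97 and 2.78 CPM in Ctrl and 2.96 and 2.41 CPM in shSTAU1 (log2 fold change -0.10, 95% interval -0.83 to 0.63). SNHG6, host of SNORD87 on chromosome 8 from 66921684 to 66926398, was the least counted of the 9 with 12 to 21 counts per library (log2 fold change 0.01, 95% interval -1.42 to 1.44), and its sign changed with library-size and upper-quartile scaling. A neighbour on the other strand, MCMDC2, shares 29.3% of the exon bases of SNHG6 and had 1 to 8 counts. The intervals of SNHG5, SNHG6 and SNHG12 leave room for changes in either direction.

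Per kb of merged exon, the Ctrl level was highest for GAS5 (22.4 ± 1.58 CPM per kb, SD, n = 2), followed by SNHG16 (7.73 ± 0.454), SNHG8 (3.92 ± 0.351), SNHG1 (3.43 ± 0.111), SNHG15 (2.24 ± 0.387), ZFAS1 (1.07 ± 0.0107), SNHG5 (1.03 ± 0.049), SNHG6 (0.385 ± 0.129) and SNHG12 (0.293 ± 0.0494). ZFAS1 and SNHG5 differed by little, and the libraries of SNHG6 and SNHG12 overlapped. In shSTAU1, SNHG8 was at 1.57 ± 0.114 CPM per kb, close to SNHG15 (1.56 ± 0.0607) and below SNHG1 (2.48 ± 0.134). The libraries were made with an exome-capture kit, in which probes for coding exons enrich the cDNA, and how far each noncoding host is covered by probes is not given in the sources used here. These levels therefore need not rank the transcripts in the cell.

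**Figure D2:**
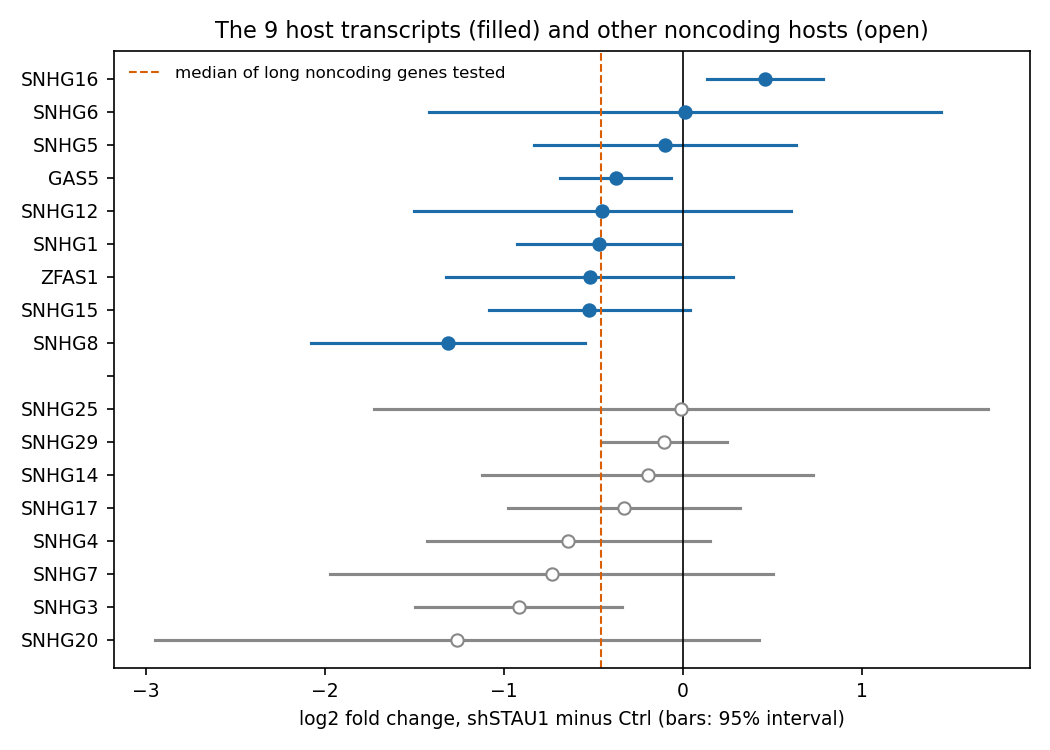
Log2 fold change (shSTAU1 minus Ctrl, horizontal axis) with its 95% interval for the 9 host transcripts (filled) and the 8 other noncoding hosts that were tested (open). The dashed line is the median of the 473 long noncoding genes tested, -0.46, near which GAS5, SNHG1, SNHG12, SNHG15 and ZFAS1 lie, while SNHG8 lies below and SNHG16 above.

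The median log2 fold change of the 9 was -0.45, against 0.01 over all tested genes. Long noncoding genes as a class were also lower. Over the 473 tested, the 9 included, the median was -0.46, 74.6% had a log2 fold change below 0, 42.9% were lower in both shSTAU1 libraries and 1.06% passed the threshold. The median of the 9 was thus close to that of their class. SNHG16 was apart from most of it, as 7.61% of long noncoding genes were higher in both shSTAU1 libraries, and 20.5% had a log2 fold change of -1 or less, as SNHG8 did. Protein-coding genes took 93.3% and 93.4% of the counts in Ctrl and 94.4% and 95.2% in shSTAU1, and the part of this shift in the values of the 9 was not tested.

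Of 19 other noncoding snoRNA hosts, 8 had enough counts to be tested, all 8 had a log2 fold change below 0 (median -0.48, with 6 of 8 below 0 after a length and GC correction and 6 to 8 when 1 library was left out) and 0 passed the threshold (1 had an unadjusted p under 0.05, and 5 had groups that did not overlap). The gene with that p was SNHG3, the host of SNORA73 genes, with 7.23 and 6.78 CPM in Ctrl and 3.91 and 3.51 CPM in shSTAU1, or -0.92 on the log2 scale (standard error 0.25, adjusted p = 0.0819). The median of the 8 was -0.77 without shSTAU1 replicate 2 and -0.35 without Ctrl replicate 1. SNHG29, the most abundant per kb, overlapped between groups at 121 and 117 against 123 and 97.8 CPM.

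Of the 26 listed ribosomal protein genes that carry snoRNAs in their introns, 24 were tested, and all 24 were higher in both shSTAU1 libraries, with log2 fold changes from 0.10 to 0.76 and a median of 0.42. None of them passed the threshold alone (21 had an unadjusted p under 0.05). RPL23A, a protein of the large subunit, had 1331 and 1298 CPM in Ctrl and 1684 and 1758 CPM in shSTAU1. Among 16 tested other protein-coding hosts the median was 0.33, with 12 above 0, 8 higher and 3 lower without overlap and 0 past the threshold (10 with an unadjusted p under 0.05). That median rested on single libraries, at 0.14 with 7 of 16 below 0 without Ctrl replicate 1 and 0.056 with 8 of 16 below 0 without shSTAU1 replicate 2. NCL, the nucleolar protein nucleolin, had 1666 and 1833 CPM in Ctrl and 2137 and 2589 CPM in shSTAU1 (log2 fold change 0.43, adjusted p = 0.114), and HSPA8, a constitutive chaperone, ranged from 1780 to 3951 CPM with overlapping groups. With the length and GC correction the medians were -0.44 for the 9, 0.39 for the ribosomal protein hosts and 0.35 for the other coding hosts.

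**Figure D3:**
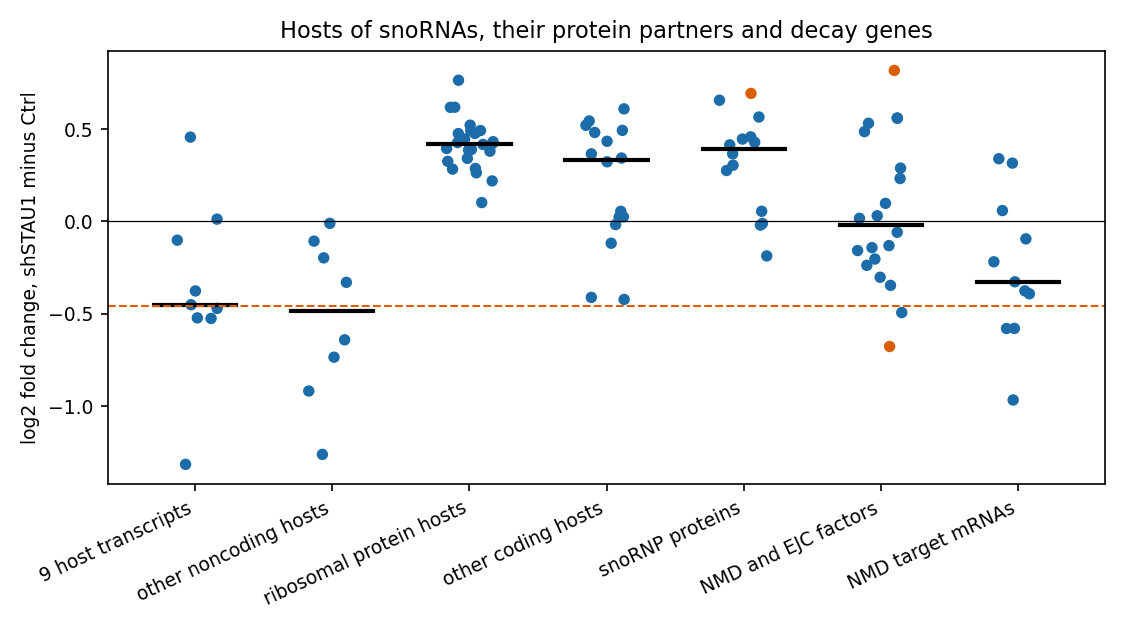
Log2 fold change (shSTAU1 minus Ctrl) of each tested gene by list, 1 point per gene, orange where the adjusted p was under 0.05, with a black line at the list median and a dashed line at the median of long noncoding genes. NMD is nonsense-mediated decay and EJC the exon junction complex. The noncoding hosts lie mostly below 0 (medians -0.45 and -0.48) and the ribosomal protein hosts wholly above (0.10 to 0.76).

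The proteins that package snoRNAs were examined next. Of 14 tested snoRNP core and assembly genes, 11 had a log2 fold change above 0 (median 0.39), 10 were higher in both shSTAU1 libraries, and 1 passed the threshold. This was NOP10, a core protein of H/ACA particles, which rose from 52.6 and 55.0 CPM to 86.8 and 87.1 CPM (log2 fold change 0.69, standard error 0.13, adjusted p = 0.0405). The median was 0.20 without shSTAU1 replicate 2. NOLC1, a nucleolar and Cajal body chaperone of snoRNPs, had a log2 fold change of 0.28 that did not pass. FBL, ZNHIT3, RPL7A and EEF1B2 are listed at 0 in all 4 libraries although FBL, RPL7A and EEF1B2 are used by nearly every cell, so a 0 in this table need not mean an absent transcript.

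Of the 20 NMD and exon junction factors, all tested, 10 were above 0 and 10 below (median -0.02, or 0.07 after the length and GC correction and -0.15 to 0.10 with 1 library left out), with 1 higher and 1 lower past the threshold. MAGOH, a core subunit of the exon junction complex, rose from 57.0 and 62.2 CPM to 95.9 and 114 CPM (log2 fold change 0.82, standard error 0.15, adjusted p = 0.0366). SMG5, an adaptor that brings decay enzymes to phosphorylated UPF1, fell by 0.68 on the log2 scale (151 and 159 CPM to 90.5 and 103 CPM, adjusted p = 0.0467). NBAS, the other of the most abundant per kb, had a log2 fold change of -0.35 (adjusted p = 0.137).

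The 11 protein-coding mRNAs listed as NMD targets had a median log2 fold change of -0.33, with 8 below 0, 6 lower and 1 higher without overlap and 0 past the threshold (3 with an unadjusted p under 0.05). ATF4, the stress-response transcription factor, had 101 and 103 CPM in Ctrl and 102 and 111 CPM in shSTAU1, which overlapped. UPP1, uridine phosphorylase, had 88.9 and 73.3 against 63.3 and 60.4 CPM (log2 fold change -0.39, adjusted p = 0.158).

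Few reads were counted for the snoRNAs themselves. By position, 21 of the 35 were matched to a gene of the table, and 18 of these had 0 counts in all 4 libraries. All 17 that overlap an annotated exon of their host were at 0, and 3 of the 4 that lie outside host exons had reads. How reads shared by overlapping genes were counted is not given in the sources used here. A 0 allows up to 3 reads per library by counting error, but only where such reads would be counted. These zeros therefore need not mean absent snoRNAs. SNORD12C, inside ZFAS1, had 119 and 158 counts in Ctrl and 127 and 163 in shSTAU1, more than its host in every library, with a log2 fold change of -0.02 (95% interval -0.72 to 0.68). SNORD99, inside SNHG12, had 39 and 25 against 16 and 18 counts (adjusted p = 0.288), and SNORD1B, inside SNHG16, had 15 and 18 against 8 and 18. Of the neighbouring genes, ZBTB37, a zinc finger gene that starts 800 bases from GAS5 in the other direction, had 6.72 and 8.15 CPM in Ctrl and 4.85 and 3.85 CPM in shSTAU1 (log2 fold change -0.77, adjusted p = 0.128). TRNAU1AP, which shares 8 exon bases with SNHG12, overlapped between groups.

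The mean profile of the 9 over the 4 libraries (log2 CPM centred on each gene's mean) was 0.21 and 0.15 in Ctrl and -0.10 and -0.25 in shSTAU1. Among 14294 other genes, those nearest to it were POMGNT2, THBS2, MARCHF6, ZNF629 and ABTB3, with root mean square differences of 0.0092 to 0.0153 on that log2 scale. With only 4 libraries many genes share such a profile, and this likeness is a description.

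**Figure D4:**
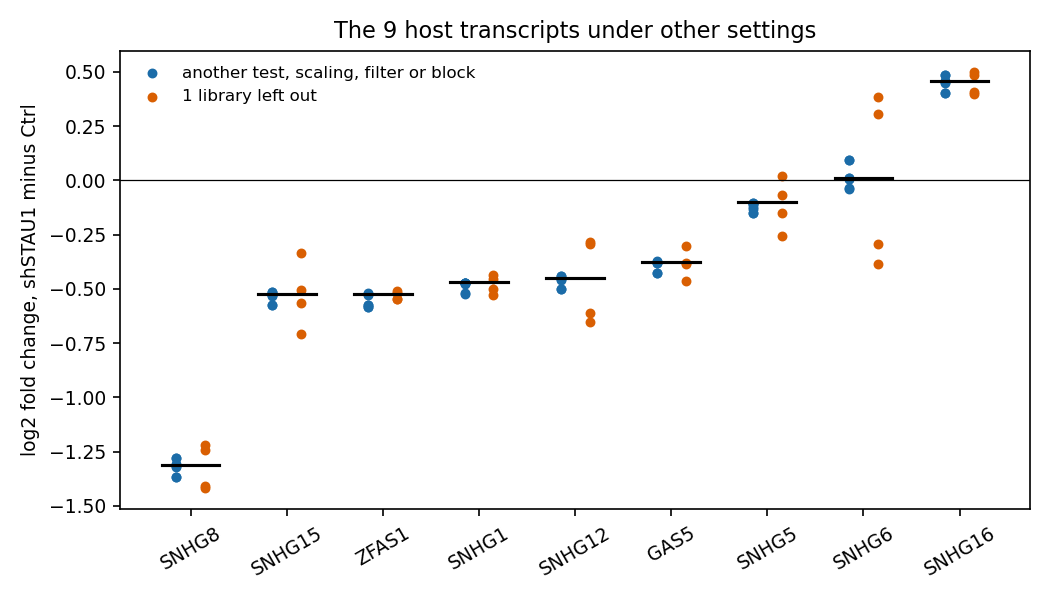
Log2 fold change (shSTAU1 minus Ctrl) of each host transcript under 8 other tests, scalings, filters or blocks (blue) and with 1 library left out (orange), with a black line at the reported value. SNHG8 stays between -1.42 and -1.22 and SNHG16 between 0.40 and 0.50, while SNHG6 and SNHG5 fall on both sides of 0. SNHG5 is above 0 only without shSTAU1 replicate 2 (0.021).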

How the data were processed

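The authors deposited raw counts per Ensembl gene for 4 RNA-sequencing libraries, made with an exome-capture kit. The submitters' processing notes name Partek and hg38. The aligner, counter and strand setting are not given in the sources used here. No column was left unmapped (0).

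Genes were kept by filterByExpr (14303 of 67008, with 99.9% of the counts), scaled by TMM and tested with edgeR 4.0.16 (quasi-likelihood test, 2 against 2 libraries, two-sided, Benjamini-Hochberg adjustment over all tested genes, threshold 0.05) in R 4.3.3. The biological coefficient of variation was 19.1%. An exact permutation test of 2 against 2 libraries cannot go below p = 0.333, so none was used. Within each group the spread exceeded counting error (chi-square per degree of freedom 23.4 in Ctrl and 56.4 in shSTAU1). Depth was 32206655 to 36301574 counts per library, and counting intervals and limits at 0 (3 counts) cover counting error only.

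Gene positions and exons came from GENCODE 29 on GRCh38, hosted snoRNAs and start regions from RefSeq. The members and gene lists were chosen with earlier results of these data known. Named from each list were the genes past the threshold (at most 4) and the 2 of highest CPM per kb in Ctrl, from the hosted snoRNAs and neighbours those with a mean of at least 10 counts, and the 5 genes of most similar profile. AC015802.6, MCMDC2 and the listed genes at 0 were named after their values were seen. Some genes that this rule names are not reported here. Alternatives were DESeq2 1.42.0, limma-voom (limma 3.58.1), other scalings, no filter, a length and GC correction, a replicate block and leaving out each library. Code was tested on simulated data.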

Additional observations from a re-analysis of the deposited data

How the results depend on the processing

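Over 12 alternatives, 107 of 120 values (STAU1 and the 9 host transcripts) kept their direction and side of the threshold, 8 passed it newly and 5 changed sign. SNHG6 had no adjusted p in DESeq2 and was counted there as not past the threshold. The replicate numbers showed a correlation of 0.27 between same-numbered libraries' deviations, and no label says that a number marks a batch, so the comparison was not paired. With the replicate block, GAS5 was at -0.37 (adjusted p = 0.0111), SNHG8 at -1.31 (0.00158) and SNHG16 at 0.46 (0.00300), giving 2 lower and 1 higher past the threshold, while calls over all genes went from 372 to 4087. The length and GC correction with the replicate block gave -0.38, -1.28 and 0.48, again 2 lower and 1 higher, with 3711 calls. DESeq2 gave SNHG8 -1.32 (adjusted p = 0.0411), 1 lower, with 1449 calls. An adjusted p under 0.10, or a 1.5-fold change with an unadjusted p under 0.05, gave 1 lower each. Without a filter 11 of 24804 genes were called. SNHG6 was at -0.038 with library-size and -0.035 with upper-quartile scaling, which gave 132 higher and 272 lower calls and 137 higher and 270 lower over all genes, against 161 and 211. The length and GC correction alone gave 195 and 159. The cause was not tested.

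Leaving out 1 library, with the lone sample assumed to vary like the other group, gave 214 calls (without Ctrl replicate 1), 226 (without Ctrl replicate 2), 2625 (without shSTAU1 replicate 1) and 1734 (without shSTAU1 replicate 2). SNHG16 ranged from 0.40 to 0.50, with 0 to 1 host transcript higher past the threshold (1 without shSTAU1 replicate 1, adjusted p = 0.0384) and 0 lower. SNHG5 ranged from -0.26 to 0.021, SNHG6 from -0.38 to 0.39, SNHG12 from -0.65 to -0.28 and SNHG15 from -0.71 to -0.34. SNHG8 ranged from -1.42 to -1.22 (adjusted p 0.0503 to 0.282). SNHG5, SNHG6, SNHG12 and ZFAS1 had at most 103 counts in a library, and whether depth limited their calls was not tested.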
